A study of Mus musculus with 14 samples.

Results

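Gene expression was compared between bone marrow cells of the LSK phenotype sorted at the GFP3 and the GFP1 level of a histone label, on all 5 arrays that the sample titles place in these groups, 2 of GFP3 and 3 of GFP1, out of 14 arrays at 5 GFP levels. LSK cells lack the markers of mature blood lineages and carry Sca1 and Kit. The mice, on a C57BL/6 background, carried huCD34-tTA and Tet-O-H2B-GFP transgenes, in which a human CD34 promoter drives a histone H2B-GFP fusion through a tetracycline-regulated activator. Every group, GFP1 included, came from mice that had this genotype and had drunk water with 1 mg/ml doxycycline for 12 weeks, beginning at 6 to 8 weeks of age, which stopped new labelling. Each later division diluted the label, so GFP1 cells had divided more often during the chase than GFP3 cells; neighbouring levels lie about 1 to 2 divisions apart by the series' description. The levels are ranks of GFP brightness in cells that had used the human CD34 promoter, so they count divisions only in labelled cells and only over the chase. The labels call the arrays of a group biological replicates and do not say which animals, or how many, gave the cells of each. The p-values therefore refer to the spread among these samples, which may in part be technical.

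Hematopoietic stem cells divide rarely and sit at the top of blood formation; the multipotent progenitors beneath them divide more often and begin to transcribe lymphoid or myeloid genes. Both are LSK cells, and surface proteins such as Procr and Slamf1, present on stem cells, and Cd48, present on progenitors, are used to separate them. In bulk sorted RNA, fewer cells of a type and less RNA per cell cannot be told apart.

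All levels are log2 expression per probe set and all differences are log2 differences, so that 1 is a doubling. Array medians lay between 6.96 and 7.18 over the 14 arrays. GFP1 replicate 3 stood nearer to GFP3 than to its own group: over 18194 genes it correlated with the GFP3 arrays at r = 0.990 and 0.984 and with the other GFP1 arrays at 0.970 and 0.959. With GFP2 replicates 1 to 3 it correlated at 0.978, 0.989 and 0.990, so these values do not single out GFP3. The other GFP1 arrays were not close to each other either. GFP1 replicates 1 and 2 correlated at 0.953, and with GFP3 replicate 1 at 0.964 and 0.962. With GFP3 replicate 2 they correlated at 0.951 and 0.945. The label of GFP1 replicate 3 is in doubt on these values and could not be checked further. This array was kept in the group its title gives, and every GFP1 mean and difference includes it unless stated. For Gapdh, the excess of the 3 prime over the 5 prime probe set, a sign of RNA quality, was 5.06, 5.02 and 6.52 in GFP1 replicates 1 to 3 and 6.58 and 6.09 in GFP3, so on this measure too GFP1 replicate 3 lay with GFP3. That of Actb was 2.99, 4.18 and 4.72 in GFP1 and 4.20 and 4.01 in GFP3, and the groups overlapped. Of the sort markers, Kit, Ptprc, Cd34 and Spn lay above the median of the table (7.03) in all 5 arrays; no probe set names Ly6a (Sca1) alone. Of the 7 measured genes of lineage antigens and their partners, Itgam (4.92 to 5.60) and Cd5 (5.32 to 6.12) lay under the median of the table in all 5 arrays. Cd79a lay between 6.72 and 7.42, Cd3e and Cd8a between 7.22 and 7.99 and Cd4 between 8.25 and 8.56, and Ptprcap, a partner of CD45 in lymphocytes, between 11.82 and 12.54.

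**Figure D1:**
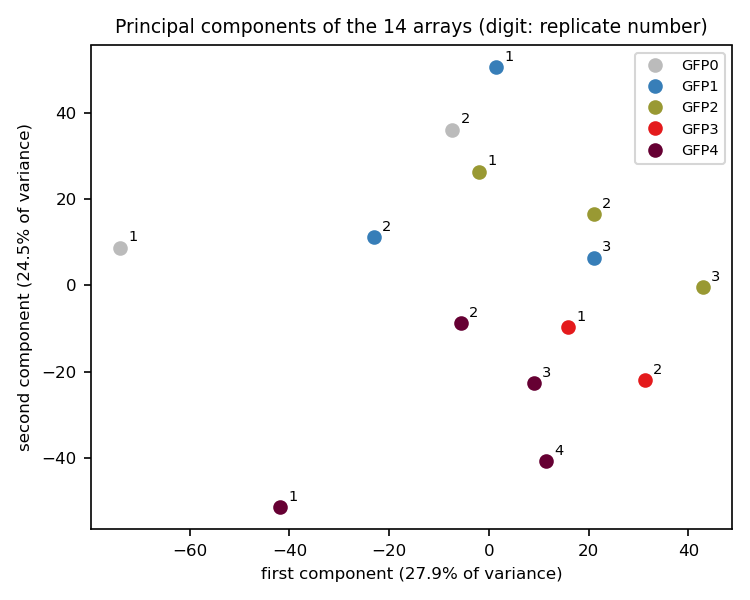
Each point is 1 of the 14 arrays on the first principal component (horizontal, 27.9% of the variance) and the second (vertical, 24.5%) of log2 expression over 18194 genes, coloured by GFP level, with the replicate number beside it. GFP1 replicate 3 lies near GFP2 replicate 2 and GFP3 replicate 1, while GFP1 replicates 1 and 2 lie apart from it and from each other.

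No gene passed an adjusted p of 0.05 (limma, Benjamini-Hochberg over 18194 genes; 0% of genes higher and 0% lower), and no gene is therefore called higher or lower here. The smallest adjusted p belonged to Obsl1, a cytoskeletal adaptor of the obscurin family, which is singled out because of that value. Its level was 7.58, 8.01 and 7.80 in GFP1 and 9.57 and 10.24 in GFP3, a difference of 2.11 ± 0.27 (SE, adjusted p = 0.0519). This rests on 1 of its 5 probe sets: the others differed by -0.12 to 0.47, and with the mean over all of them the difference was 0.53 (limma, adjusted p = 0.685). At an unadjusted p under 0.05 there were 811 genes (4.46%), 477 with the higher level in GFP3 (2.62%) and 334 with the lower (1.84%), which is below the 5 in 100 that this threshold lets through when nothing differs. The 2 GFP3 arrays lay above all 3 GFP1 arrays for 1763 genes (9.69%) and below them for 1903 (10.5%). Arrays that did not overlap and a difference of at least 1 were found together for 226 genes above (1.24%) and 166 below (0.912%). Single arrays moved these counts. Without GFP1 replicate 3, 9 genes passed the adjusted threshold, 7 higher (Obsl1, Gbp8, Gimap8, Mecom, Mllt3, Mmrn1 and Pgap4) and 2 lower (Iglv1 and a kappa segment of the Igkv15 family, both of immunoglobulin light chains), 1530 reached an unadjusted p under 0.05, and 594 and 335 lay apart by at least 1. Without GFP4 replicate 2, which enters only the shared estimate of spread, 7 genes passed, 3 higher and 4 lower; without GFP2 replicate 3 there were 2 and without GFP2 replicate 1 there was 1. Without GFP3 replicate 2 the 811 became 184 and without GFP1 replicate 1 it became 511, and without GFP3 replicate 1 the numbers apart by at least 1 became 508 and 297. In simulated arrays with the spread of these genes, the share of changed genes recovered in this comparison was 26.9% for a change of 1, 91.0% for 2 and 98.5% for 3. The simulated noise was independent between genes and arrays, with no array apart like GFP1 replicate 3, so these shares need not hold here. In the real arrays 22 genes above and 45 below lay apart by at least 2, and none passed.

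Among expressed genes with the highest differences in GFP3 stood Procr, the endothelial protein C receptor used to isolate stem cells, and Mecom, a zinc finger transcription factor needed to maintain them. Procr was measured at 8.96, 7.41 and 9.73 in GFP1 and 10.57 and 11.18 in GFP3, a difference of 2.17 ± 0.53 (SE, adjusted p = 0.391). Mecom was measured at 7.79, 8.09 and 9.72 in GFP1 and 10.76 and 10.97 in GFP3, with a difference of 2.33 ± 0.52 (SE, adjusted p = 0.289). For both genes every GFP3 array lay above every GFP1 array, and GFP1 replicate 3 came nearest. Mmrn1 encodes multimerin, a protein of platelets and endothelium, and stood at 7.87, 8.44 and 9.59 in GFP1 against 10.96 and 11.32 in GFP3 (difference 2.51 ± 0.42 (SE, adjusted p = 0.1)). Gimap8, a GTPase of immune cells, stood at 7.86, 8.12 and 9.16 against 10.50 and 10.81 (difference 2.28 ± 0.41 (SE, adjusted p = 0.153)). Again GFP1 replicate 3 was the highest of its group and still below both GFP3 arrays. Without that array the 12 highest differences lay between 2.15 and 3.35, and the 12 lowest, described after them, between -4.85 and -2.08. These 12 each way were ranked only among expressed genes without overlap, at an unadjusted p under 0.01 (limma) and with a probe set not ending in _x_at. Genes outside this rule could differ by more than some of them, such as Meg3 (2.38) and Ctsg (-3.71).

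The other 8 of the 12 highest differences were those of Pgap4 (2.93), Klf12 (2.37), Pkp2 (2.37), Gbp8 (2.34), Unc45b (2.25), Nrk (2.21), Mamdc2 (2.16) and Fstl1 (2.14), with adjusted p between 0.0811 and 0.694. Pgap4 acts on glycosylphosphatidylinositol anchors of surface proteins, Klf12 is a Krüppel-like repressor, Pkp2 a plakophilin of cell junctions, Unc45b a chaperone of muscle myosin and Fstl1 a secreted glycoprotein. Pgap4 was measured at 5.74, 6.23 and 7.25 in GFP1 and 9.12 and 9.55 in GFP3, and Unc45b at 6.13, 5.72 and 7.52 and 8.14 and 9.28. Gbp8, a guanylate-binding protein, was measured at 5.48, 4.90 and 5.68 in GFP1 and 7.33 and 8.07 in GFP3. Pkp2, Gbp8, Nrk and Fstl1 lay under the table median in all 3 GFP1 arrays, and without detection calls the size of such a difference rests on dim values. Other probe sets of the same genes showed smaller differences where they exist: 0.35 for Mmrn1, 0.17 and 0.19 for Mecom, between -0.13 and 0.30 for Nrk and 1.18 for Fstl1. With the mean over the probe sets of a gene the differences were 1.43 for Mmrn1, 0.90 for Mecom, 0.80 for Klf12, 0.79 for Nrk and 0.78 for Pkp2. The last gene named by this rule was Fstl1, and the next below it was Obsl1.

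**Figure D2:**
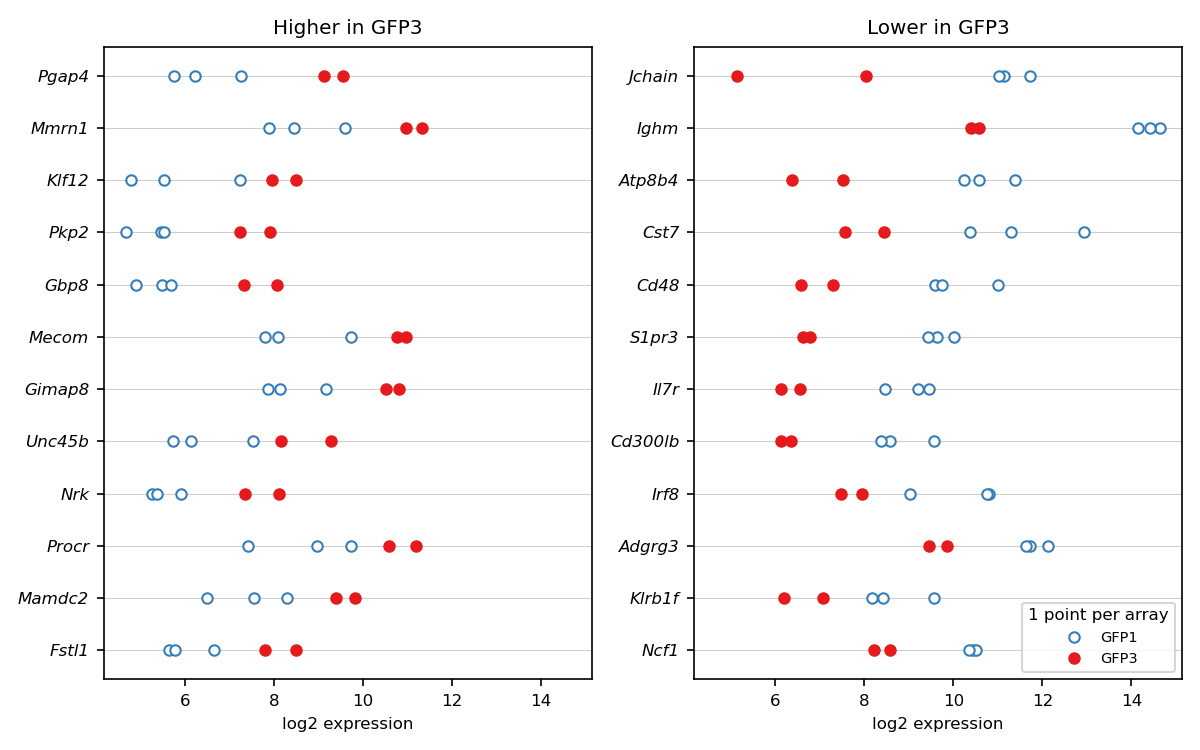
Each row is a gene and each point 1 array, with log2 expression on the horizontal axis; open points are the 3 GFP1 arrays and filled points the 2 GFP3 arrays, for the 12 highest differences (left) and the 12 lowest (right). The groups do not overlap in any row, as the rule for naming the genes required. In 11 of 12 rows on the left and 10 of 12 on the right GFP1 replicate 3 is the GFP1 array nearest to GFP3. Over all genes this array is the nearest for 53.4%.

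Among the lowest differences in GFP3 stood those of Jchain, Ighm, Cd48 and Il7r. Jchain, which joins the chains of polymeric antibodies, was measured at 11.72, 11.15 and 11.04 in GFP1 and 8.03 and 5.14 in GFP3, a difference of -4.71 ± 1.22 (SE, adjusted p = 0.517). Ighm, the heavy chain of IgM, whose sterile transcripts early lymphoid cells make, was measured at 14.64, 14.42 and 14.14 in GFP1 and 10.58 and 10.40 in GFP3, with a difference of -3.91 ± 0.90 (SE, adjusted p = 0.311). The 2 GFP3 arrays lay close together for Ighm and nearly 3 units apart for Jchain. Cd48, the SLAM-family protein of progenitors, stood at 11.01, 9.59 and 9.75 against 7.29 and 6.57 (difference -3.18 ± 0.70 (SE, adjusted p = 0.27)). The interleukin 7 receptor gene Il7r, active in lymphoid progenitors, stood at 9.22, 8.46 and 9.46 against 6.55 and 6.12 (difference -2.71 ± 0.46 (SE, adjusted p = 0.1)). Neither gene overlapped between the groups, and for both GFP1 replicate 2, not replicate 3, came nearest to GFP3.

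Of the other 8, S1pr3, a receptor for sphingosine 1-phosphate, was measured at 10.01, 9.64 and 9.43 in GFP1 and 6.61 and 6.78 in GFP3. Irf8, a transcription factor of monocytes and dendritic cells, was measured at 10.81, 10.75 and 9.03 and 7.95 and 7.47, and GFP1 replicate 3 was nearest to GFP3. Their differences were -2.99 and -2.48, beside -3.78 for the phospholipid flippase Atp8b4, -3.52 for the protease inhibitor Cst7, -2.60 for the myeloid receptor Cd300lb, -2.18 for the adhesion receptor Adgrg3, -2.09 for the lectin receptor Klrb1f and -2.04 for Ncf1, a subunit of the phagocyte oxidase. Adjusted p for these 8 lay between 0.219 and 0.733. S1pr3, Il7r and Cd300lb lay under the table median in both GFP3 arrays. For Irf8 the other probe set gave -2.65 and for Atp8b4 -2.23, whereas for Il7r it gave -0.90 and for S1pr3 the 2 others gave -0.45 and 0.01. With the mean over probe sets the differences were -1.68 for Ighm, -1.81 for Il7r, -1.14 for S1pr3 and -1.24 for Klrb1f. The next gene above Ncf1 was E330020D12Rik at -1.99.

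Genes known for their expression in stem cells formed the list that stood furthest up. This list, like the others, was chosen with earlier results of these data known, so its counts are a description and not a test. All 29 measured members had a higher mean in GFP3 (48.7% of all genes did), with a median difference of 1.28, where the median over all genes was -0.01. For 27 of 29 the arrays did not overlap, against 9.69% of all genes, and for 21 the unadjusted p was under 0.05, against 2.62%; none passed the adjusted threshold. The mean level of the list was 8.10, 8.40 and 8.79 in GFP1 and 9.58 and 10.00 in GFP3. Both GFP3 arrays thus lay above all GFP1 arrays, of which replicate 3 was the highest. Without any 1 array the number at an unadjusted p under 0.05 lay between 14 and 22 and the median between 1.12 and 1.51, and with GFP1 replicate 3 as the only GFP1 array they were 12 and 1.04.

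Mllt3, a chromatin reader of the super elongation complex that helps maintain stem cells, was measured at 7.56, 7.73 and 8.64 in GFP1 and 9.90 and 10.22 in GFP3, a difference of 2.08 ± 0.34 (SE, adjusted p = 0.0994). Ndn, necdin, an imprinted growth suppressor, was measured at 8.61, 9.66 and 9.47 and 11.20 and 11.36, a difference of 2.03 ± 0.33 (SE, adjusted p = 0.0994). Sult1a1, a sulfotransferase, was measured at 7.12, 7.15 and 6.89 and 8.68 and 9.53, a difference of 2.05 ± 0.35 (SE, adjusted p = 0.101). In none of these did the groups overlap. Slamf1, the SLAM protein that marks stem cells, was measured at 6.98, 7.35 and 7.44 in GFP1 and 8.08 and 8.11 in GFP3; its difference was 0.85 ± 0.21 (SE, adjusted p = 0.391). Pdzk1ip1, a small membrane protein used as a stem cell reporter, stood at 10.95, 11.11 and 11.73 against 12.51 and 13.03, a difference of 1.51. Vwf, a platelet adhesion protein made by platelet-primed stem cells, stood at 7.61, 7.73 and 7.39 against 8.06 and 9.25 and owed most of its difference of 1.08 to GFP3 replicate 2.

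Transcription factors of stem cells leaned the same way to a smaller extent, with Gata2, Meis1, Hlf, Mecom and Prdm16 in both lists. Of 36 measured, 31 had the higher mean in GFP3 and 17 did not overlap, the median difference was 0.56, and 12 reached an unadjusted p under 0.05, with none in the other direction; over all genes the shares were 48.7%, 9.69% and 2.62%. Mycn, the N-Myc factor of immature cells, was measured at 8.24, 7.50 and 8.78 in GFP1 and 10.24 and 10.08 in GFP3, a difference of 1.98 ± 0.38 (SE, adjusted p = 0.202) that was 0.66 with the mean over its 3 probe sets. Gata2, a zinc finger factor of stem and mast cells, was measured at 9.64, 9.54 and 10.06 and 10.44 and 10.71, a difference of 0.83 ± 0.24 (SE, adjusted p = 0.674). Hlf, a leucine zipper factor restricted to immature cells, was measured at 9.42, 11.27 and 10.81 and 11.38 and 11.60. For Hlf only GFP1 replicate 1 stood well below the rest, and the difference was 0.99 ± 0.45 (SE, adjusted p = 1.00). The count of 12 was 6 without GFP1 replicate 1, 4 without GFP3 replicate 2 and 1 with GFP1 replicate 3 alone, where the median was 0.32.

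**Figure D3:**
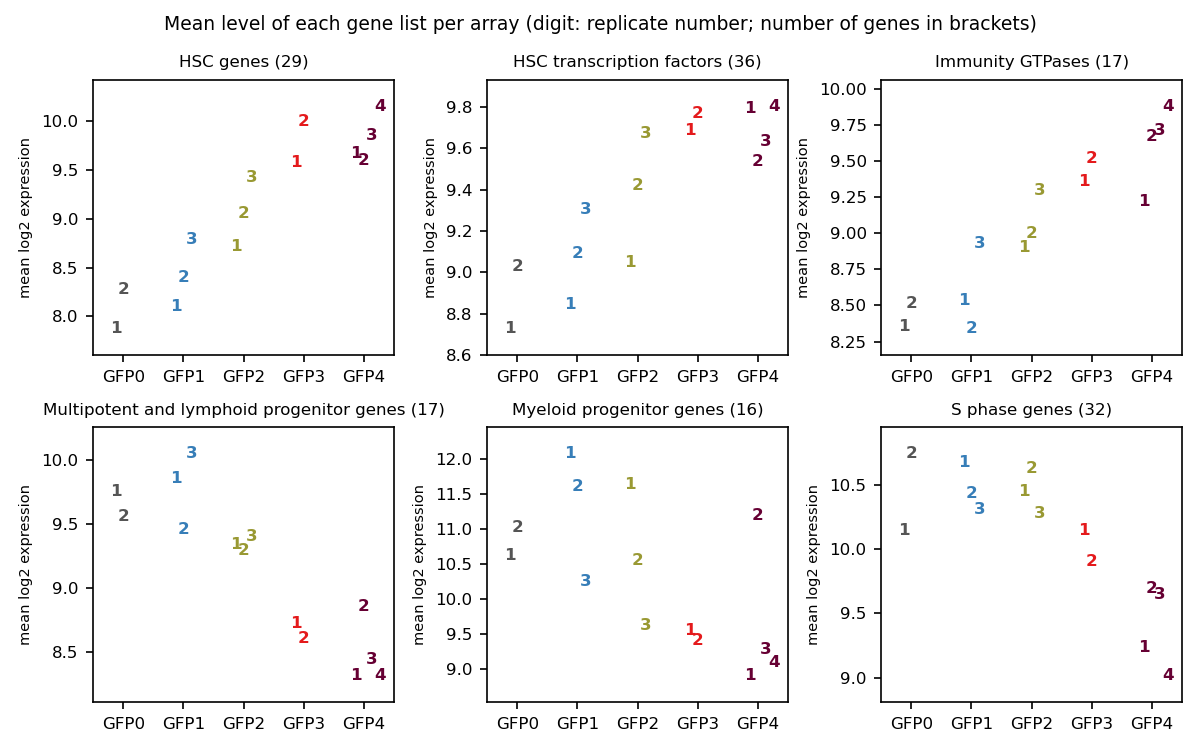
Each panel gives the mean log2 expression of a gene list (vertical) in every array at the 5 GFP levels (horizontal), with the replicate number as the symbol and the number of genes in brackets. Both GFP3 arrays lie above all 3 GFP1 arrays for the top 3 lists and below them for the bottom 3; GFP1 replicate 3 is the GFP1 array nearest to GFP3 in the panels of stem cell genes, stem cell transcription factors, immunity GTPases, myeloid genes and S phase genes.

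Genes of multipotent and lymphoid progenitors lay lower in GFP3. Of 17 measured, 13 had the lower mean (51.3% of all genes did), 10 did not overlap (10.5% of all genes), 9 reached an unadjusted p under 0.05 (1.84% of all genes) and the median difference was -0.83. Dntt, the terminal transferase that adds bases to rearranging antigen receptor genes, was measured at 13.68, 13.38 and 14.02 in GFP1 and 11.83 and 11.63 in GFP3, a difference of -1.96 ± 0.54 (SE, adjusted p = 0.567). Cd53, a tetraspanin of leukocytes, was measured at 10.17, 9.84 and 10.23 and 9.03 and 9.03, a difference of -1.05 ± 0.21 (SE, adjusted p = 0.219) that was -0.60 with the mean over its 2 probe sets. Satb1, a chromatin organiser of lymphoid cells, was measured at 10.64, 10.02 and 11.61 and 9.81 and 7.92 (difference -1.89 ± 0.55 (SE, adjusted p = 0.637)). The GFP3 arrays of Dntt and Cd53 lay within 0.21 of each other, those of Satb1 nearly 2 units apart. Flt3, the cytokine receptor that separates multipotent progenitors from stem cells, did not follow: it was measured at 10.88, 11.00 and 11.70 in GFP1 and 11.00 and 10.87 in GFP3, and the groups overlapped (difference -0.25 ± 0.35 (SE, adjusted p = 1.00)). Cd34 likewise overlapped, at 11.57, 10.30 and 11.56 and 10.73 and 11.20 (difference -0.18 ± 0.40 (SE, adjusted p = 1.00)).

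Myeloid progenitor genes had the lowest median of all lists, -1.83. Of 16 measured, 15 had the lower mean in GFP3, 12 did not overlap and 9 reached an unadjusted p under 0.05, where all genes had 51.3%, 10.5% and 1.84%. The spread within GFP1 was wide. Mpo, the myeloperoxidase of primary granules, was measured at 13.99, 14.06 and 11.37 in GFP1 and 10.48 and 10.07 in GFP3, a difference of -2.87 ± 1.40 (SE, adjusted p = 1.00). Ctsg, the granule protease cathepsin G, was measured at 14.32, 14.09 and 11.84 and 10.19 and 9.23 (difference -3.71 ± 1.44 (SE, adjusted p = 1.00)). Csf1r, the receptor for macrophage colony-stimulating factor, was measured at 12.33, 12.08 and 10.54 and 8.54 and 9.11 (difference -2.82 ± 0.95 (SE, adjusted p = 0.874)), with -1.50 as the mean over its 3 probe sets. In each of these GFP1 replicate 3 lay at least 1.5 units under the other GFP1 arrays and above both GFP3 arrays.

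The myeloid list depended on single arrays. Its mean level was 12.08, 11.62 and 10.25 in GFP1 and 9.56 and 9.41 in GFP3. The count of 9 became 3 without GFP1 replicate 1, 3 without GFP1 replicate 2, 12 without GFP1 replicate 3, 3 without GFP3 replicate 1 and 2 without GFP3 replicate 2, and a like loss to 6 followed when GFP4 replicate 3 was left out of the shared estimate of spread; the median then lay between -2.14 and -1.41. With GFP1 replicate 3 as the only GFP1 array the count was 0 and the median -0.30. Markers of mature myeloid cells varied over the same arrays. For 18 markers of neutrophils, monocytes and macrophages the mean was 9.47, 8.57 and 7.29 in GFP1 and 7.74 and 7.26 in GFP3. In GFP3 17 of 18 were lower (51.3% of all genes), 2 of them at an unadjusted p under 0.05 (1.84% of all genes). Their median of -0.59 was -0.17 without GFP1 replicate 1 and -1.04 without GFP1 replicate 3. It was 0.21 with GFP1 replicate 3 as the only GFP1 array. The 11 markers of mast cells and basophils had a mean level of 8.44, 7.75 and 7.01 in GFP1 and 6.74 and 6.65 in GFP3, and 10 of 11 were lower, 3 at an unadjusted p under 0.05 (Cpa3, Ms4a2 and Fcer1a; 1.84% of all genes), while Gata2 was higher at that value. The 3 became 0 without GFP3 replicate 1, 1 without GFP3 replicate 2, 1 without GFP1 replicate 1, 5 without GFP1 replicate 3 and 0 with the 3 prime to 5 prime excess as covariates, and the median of -0.56 was -0.24 without GFP1 replicate 2 and -0.03 with GFP1 replicate 3 alone. Their part in the lower myeloid levels of GFP3 was not tested.

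Markers of B and plasma cells were lower in 13 of 14 cases, with a median of -0.23 and means of 8.66, 8.49 and 8.37 in GFP1 against 7.72 and 7.54 in GFP3. Ighm and Jchain alone reached an unadjusted p under 0.05 among them. For the marker lists of this paragraph the shares of all genes are 51.3% lower, 1.84% lower at that value and 2.62% higher at it. Cd79a, a signalling chain of the B cell receptor, lay between 6.72 and 7.42 over the 5 arrays. Of 14 T and NK cell markers, Nkg7, a granule protein of cytotoxic cells, reached an unadjusted p under 0.05, at 13.63, 13.17 and 12.34 in GFP1 and 11.12 and 10.43 in GFP3. The T and NK list as a whole had a median of -0.12, and Klrd1, an NK receptor chain, was highest in GFP1 replicate 3. The 7 erythroblast markers had means of 7.38, 6.88 and 6.50 in GFP1 and 6.63 and 6.56 in GFP3, which overlapped, and the 15 endothelial and stromal markers had a median difference of -0.05. Of 11 dendritic cell markers 9 were lower, with a median of -0.14; Irf8, Ccr9 and Itgax were lower at an unadjusted p under 0.05, and H2-Aa, a class II chain, was higher (0.53). With GFP1 replicate 3 alone 6 of the 11 were higher and the median was 0.02, and without GFP1 replicate 1 it was -0.02. Ccr9 differed by -1.89, but by -0.17 to -0.01 in its other probe sets and by -0.45 with the mean over all 5. The part of other cell types in the lymphoid differences was not tested.

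Genes of megakaryocyte and erythroid progenitors split. Their median was 0.03 over 22 genes, with 11 higher and 11 lower and with 4 and 2 at an unadjusted p under 0.05. Of all genes, 48.7% were higher and 51.3% lower, with 2.62% and 1.84% at that value. Car1, the carbonic anhydrase of erythroid progenitors, was measured at 12.18, 10.86 and 8.23 in GFP1 and 6.78 and 6.79 in GFP3, a difference of -3.64 ± 1.31 (SE, adjusted p = 0.944). Car2, its homologue, was measured at 12.40, 11.79 and 12.94 and 13.23 and 13.56, a difference of 1.02 ± 0.32 (SE, adjusted p = 0.736), so that this pair of anhydrases stood in opposite directions. Gata1, the factor of erythroid and megakaryocytic cells, was measured at 9.35, 9.22 and 8.49 and 8.18 and 8.16, without overlap and with a difference of -0.85 ± 0.45 (SE, adjusted p = 1.00). Without GFP3 replicate 2 no member reached an unadjusted p under 0.05 in either direction, and without GFP1 replicate 1 the counts were 4 and 0.

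Most genes of S phase and of G2 and mitosis had a slightly lower mean in GFP3. Of 32 genes of DNA replication and S phase, 31 had the lower mean, with a median of -0.36; 19 did not overlap and 6 reached an unadjusted p under 0.05, beside 51.3%, 10.5% and 1.84% of all genes. Gins1, a subunit of the replicative helicase, was measured at 10.62, 9.63 and 9.47 in GFP1 and 8.98 and 8.34 in GFP3, a difference of -1.25 ± 0.38 (SE, adjusted p = 0.701). Prim1, the primase, was measured at 11.84, 12.17 and 11.37 and 11.03 and 10.35 (difference -1.10 ± 0.37 (SE, adjusted p = 0.893)), and Mcm5, a helicase subunit, at 12.52, 13.33 and 12.54 and 12.26 and 11.72 (difference -0.81 ± 0.33 (SE, adjusted p = 1.00)). GFP3 replicate 2 was the lowest of the 5 arrays in all 3. The count of 6 was 3 without GFP1 replicate 1, 3 without GFP1 replicate 2 and 0 without GFP3 replicate 2, while the median stayed between -0.47 and -0.32 without any 1 array.

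Of 31 genes of G2 and mitosis, 29 had the lower mean and 13 did not overlap, with a median of -0.48, and 0 reached an unadjusted p under 0.05 (limma; shares of all genes as for S phase). The median was -0.24 without GFP1 replicate 1, and 7 genes were lower at that value when only the 5 arrays were fitted and 3 without GFP1 replicate 2. Mki67, the proliferation antigen, was measured at 12.15, 11.51 and 11.69 in GFP1 and 11.31 and 11.22 in GFP3, a difference of -0.52 ± 0.63 (SE, adjusted p = 1.00). The groups did not overlap for Mki67, but they lay closer together than the 4 GFP4 arrays, which ran from 8.40 to 11.39. Of 23 DNA repair genes 18 were lower (51.3% of all genes), with a median of -0.33. Among these Fancd2, Blm and Fanca reached an unadjusted p under 0.05 (1.84% of all genes). Fancd2, at the centre of the Fanconi pathway, was measured at 8.02, 7.65 and 7.65 and 7.07 and 6.96 (difference -0.75 ± 0.24 (SE, adjusted p = 0.812)), with -0.41 as the mean over its 4 probe sets. Without GFP3 replicate 2 none of the repair genes reached that value.

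The regulators of the G1 phase and the inhibitors of cyclin-dependent kinases had a median of -0.02 over 25 genes. The mean was higher in GFP3 for 12 of them (48.7% of all genes). Arrays did not overlap for 5 that were higher (9.69% of all genes) and 6 that were lower (10.5%). At an unadjusted p under 0.05, 1 was higher (2.62% of all genes) and 2 were lower (1.84%). Cdkn1c, the p57 inhibitor that holds stem cells out of cycle, was the 1 member higher at an unadjusted p under 0.05, at 7.73, 7.93 and 8.00 in GFP1 and 9.18 and 9.98 in GFP3 (difference 1.70 ± 0.38 (SE, adjusted p = 0.306)). Cdk6, a kinase that drives entry into G1, was measured at 11.84, 11.89 and 12.36 and 11.28 and 11.66, a difference of -0.56 ± 0.24 (SE, adjusted p = 1.00). Cdkn1a, the p21 inhibitor induced by p53, was measured at 9.30, 9.10 and 8.61 and 8.29 and 8.40, a difference of -0.66 ± 0.25 (SE, adjusted p = 0.999). All 3 genes had arrays that did not overlap, and p57 and p21 thus stood in opposite directions.

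Among imprinted genes the differences were concentrated in a few, of which Ndn, Meg3 and Cdkn1c are also in the list of stem cell genes. The median over 21 was 0.05, but 8 did not overlap and were higher (9.69% of all genes) and 5 reached an unadjusted p under 0.05 (2.62%), all with the higher level in GFP3: Grb10, Ndn, Meg3, Cdkn1c and Ppp1r9a. Grb10, an adaptor that restrains growth factor signalling, was measured at 7.63, 7.73 and 7.66 in GFP1 and 9.22 and 9.11 in GFP3, a difference of 1.49 ± 0.23 (SE, adjusted p = 0.0994). Meg3, a maternally expressed noncoding RNA, was measured at 8.22, 8.06 and 9.59 and 10.67 and 11.34, a difference of 2.38 ± 0.50 (SE, adjusted p = 0.25). The 3 GFP1 arrays of Grb10 lay within 0.10 of each other, whereas Meg3 in GFP1 replicate 3 lay more than 1.3 above the rest. With the mean over probe sets the differences were 0.59 for Grb10 (3 probe sets) and 0.56 for Meg3 (11), against 1.92 for Ndn (8). Rian and Mirg, noncoding RNAs of the same imprinted domain as Meg3, had differences of -0.19 and 0.11, and Dlk1, its protein-coding member, of -0.10.

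GTPases of cell-intrinsic immunity, the Gbp, Irg and Gimap families, had a median of 0.63, with 16 of 17 higher, 11 without overlap and 7 at an unadjusted p under 0.05, beside 48.7%, 9.69% and 2.62% of all genes. Iigp1, an interferon-inducible GTPase that acts on pathogen vacuoles, was measured at 9.36, 9.37 and 10.91 in GFP1 and 11.36 and 11.70 in GFP3, a difference of 1.65 ± 0.45 (SE, adjusted p = 0.567). Gbp6 was measured at 7.86, 6.88 and 7.91 and 9.02 and 9.02, a difference of 1.47 ± 0.45 (SE, adjusted p = 0.707). Gimap7 was the 1 member lower, by -0.60. Interferon response genes outside these families had a median of 0.16 over 20, and only Rsad2, an antiviral enzyme, reached an unadjusted p under 0.05, at 10.04, 9.56 and 11.16 and 11.09 and 11.38. The GFP1 and GFP3 arrays of Rsad2 overlapped. Without GFP3 replicate 2 the count of 7 GTPases was 4, and with GFP1 replicate 3 alone it was 2, with a median of 0.28.

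**Figure D4:**
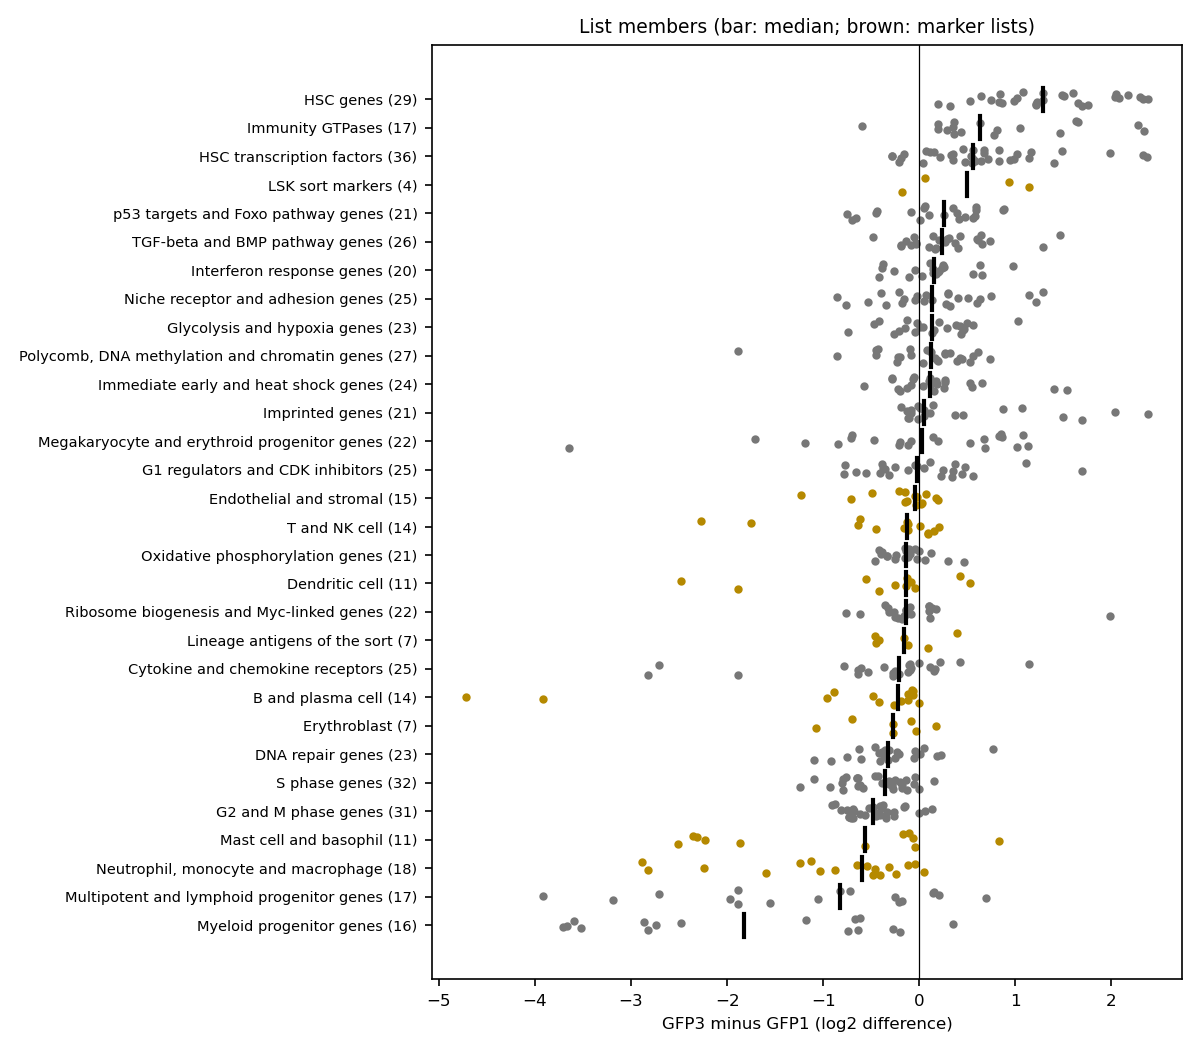
Each grey or brown point is the GFP3 minus GFP1 difference (horizontal, log2) of 1 member of a gene list (rows, with the number of genes measured), and each black bar the median of the list; brown rows are markers of the sort or of other cell types. The medians run from -1.83 for myeloid progenitor genes to 1.28 for stem cell genes, and most other lists have medians within 0.5 of 0.

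Receptors and signalling genes had small medians, -0.21 for cytokine and chemokine receptors and 0.14 for niche receptors and adhesion genes. Of 25 cytokine and chemokine receptors, 4 were lower at an unadjusted p under 0.05 (1.84% of all genes): Il7r, Csf1r, Ccr9 and Il10rb. The 1 that was higher (2.62% of all genes) was Kit, the stem cell factor receptor used for the sort. Kit stood at 8.34, 8.05 and 9.37 in GFP1 and 9.60 and 9.86 in GFP3 (difference 1.14 ± 0.41 (SE, adjusted p = 0.953)). GFP1 replicate 3 lay within 0.5 of both GFP3 arrays for Kit. With the mean over their 2 probe sets Kit differed by 0.73 and Tgfbr3, named next, by 0.70. Ccr9 differed by -0.45 with the mean over its 5. Of 26 genes of the TGF-beta and BMP pathways, Tgfbr3, a coreceptor, and Bmpr2, a BMP receptor, were higher at an unadjusted p under 0.05. The median of the list was 0.24. Bmpr2 differed by 1.28, but by 0.01 and 0.08 in its other probe sets and by 0.46 with the mean over all 3. Tgfbr3 was measured at 6.90, 7.01 and 7.90 and 8.41 and 9.06, and its arrays did not overlap. Of 25 niche receptors and adhesion genes, 15 were higher and 10 lower (48.7% and 51.3% of all genes). Arrays did not overlap for 7 that were higher and 2 that were lower (9.69% and 10.5% of all genes). At an unadjusted p under 0.05, 3 were higher and 1 lower (2.62% and 1.84% of all genes). Itgb2, an integrin chain, differed by -0.85. Esam, an endothelial adhesion molecule also found on stem cells, was measured at 9.05, 9.17 and 9.63 and 10.19 and 10.81 (difference 1.21 ± 0.33 (SE, adjusted p = 0.567)). Tek, the angiopoietin receptor Tie2, was measured at 5.74, 5.87 and 6.11 and 6.97 and 7.41 (difference 1.28 ± 0.47 (SE, adjusted p = 0.962)), from levels below the table median in GFP1.

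Housekeeping, metabolic and stress programmes lay near the median of all genes. Medians were -0.13 for 21 subunits of oxidative phosphorylation, -0.14 for 22 genes of ribosome biogenesis, 0.13 for 23 of glycolysis and hypoxia, 0.12 for 27 chromatin regulators, 0.26 for 21 of the p53 and Foxo pathways and 0.11 for 24 immediate early and heat shock genes. Without GFP1 replicate 1 the medians were 0.02, 0.03, 0.06, 0.05, 0.15 and -0.03 in this order, and without GFP3 replicate 1 that of the immediate early and heat shock genes was -0.11. Of the 21 oxidative phosphorylation genes 17 were lower and 4 higher (51.3% and 48.7% of all genes). Arrays did not overlap for 5 that were lower (10.5% of all genes) and 0 that were higher (9.69%). At an unadjusted p under 0.05, 2.62% of all genes were higher and 1.84% lower. In each of the 6 lists of this paragraph, with all arrays, at most 1 gene in a direction reached that value. Slc2a3, a glucose transporter, was the glycolysis gene that did so, at 10.08, 11.03 and 11.23 in GFP1 and 11.64 and 11.97 in GFP3 (difference 1.03 ± 0.34 (SE, adjusted p = 0.86)). Egr1, an immediate early transcription factor, differed by 1.40 but by as much between the 2 GFP3 arrays, which were at 9.96 and 8.32. Ndufb8, a subunit of respiratory complex I, stood at 13.45, 13.04 and 12.90 against 12.84 and 12.61, a difference of -0.40 ± 0.25 (SE, adjusted p = 1.00).

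The GFP2 level lies between those compared, and its 3 arrays were set against the midpoint of GFP1 and GFP3. No gene departed from the midpoint at an adjusted p of 0.05 (limma), 173 (0.951%) did at an unadjusted p under 0.05, and Klf16, Rlim, Cd99 and Prrc2a had the smallest p, with departures of -0.43, 0.50, -0.68 and -0.56. For the 226 genes that lay apart and higher in GFP3, the GFP2 mean was between the 2 others in 219; the median step was 0.78 from GFP1 to GFP2 and 0.63 from GFP2 to GFP3. For the 166 lower genes it was between them in 162, with median steps of -0.64 and -0.87. Over all genes it was between them for 37.7% of those with a difference above 0 and 40.3% of those below 0, whose median differences were 0.17 and -0.15. These steps share arrays with the comparison that chose the genes. Mllt3 in GFP2 was measured at 9.17, 9.27 and 9.52, all between the groups. Cd48 in GFP2 was measured at 9.68, 9.60 and 9.23, close to the lower GFP1 arrays and well above both GFP3 arrays, and Dntt at 13.46, 13.08 and 13.27, also nearer to GFP1.

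The difference of GFP4 and GFP0 uses 6 arrays, none of them of GFP3 or GFP1. Its test takes the spread from all 14 arrays, those of GFP3 and GFP1 included. The numbers that passed are therefore not independent of the comparison that chose the genes counted below. In this test (limma) 306 genes (1.68%) passed an adjusted p of 0.05, 228 higher (1.25% of genes) and 78 lower (0.429%). With only the 6 arrays fitted, 58 passed. Of the 226 genes that lay apart and higher in GFP3 by at least 1, 218 were also higher in GFP4 than in GFP0 (96.5%) and 66 of them passed (29.2%). Of the 166 that lay apart and lower, 160 were also lower (96.4%) and 24 passed (14.5%). Over all genes with a difference above 0 the same sign was found in 60.6%, and over those below 0 in 68.9%. No gene of either set passed in the opposite direction. Over all 18194 genes the differences correlated with Pearson r = 0.603 and Spearman rho = 0.449, given as a description, since genes of the same arrays are not independent and all arrays share 1 normalization.

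Genes of both directions passed in GFP4 against GFP0. Mllt3 differed by 2.99 there (adjusted p = 0.00122), Procr by 2.82 (adjusted p = 0.0163), Gbp8 by 3.00 (adjusted p = 0.00121), Meg3 by 5.96 (adjusted p = 0.000159) and Obsl1 by 2.55 (adjusted p = 0.000822). Cd48 differed by -3.76 (adjusted p = 0.015), Il7r by -3.07 (adjusted p = 0.00556) and Dntt by -3.09 (adjusted p = 0.0114). Pgap4, first of the 12 highest differences named between GFP3 and GFP1, differed by 1.65 and did not pass (limma, adjusted p = 0.0887). Neither did Ighm at -2.38 (adjusted p = 0.199) or Jchain at -2.50 (adjusted p = 0.342). In GFP4, Ighm was measured at 9.29, 13.41, 10.16 and 9.73, so that replicate 2 stood at the level of GFP0 and the other 3 arrays under GFP3. The numbers that passed depended on single arrays: without GFP0 replicate 1 the 66 and 24 became 16 and 7, without GFP0 replicate 2 they became 33 and 8, without GFP4 replicate 4 they became 40 and 15, and without GFP4 replicate 2 they became 74 and 42. They also depended on the model: 2 and 0 passed with array quality weights, 25 and 9 with the replicate number as a block, 30 and 9 with only the arrays of GFP4 and GFP0, and 42 and 12 with the 3 prime to 5 prime excess as covariates. The same sign was then found in 201 to 219 of 226 and in 153 to 161 of 166. The numbers with the same sign lay between 211 and 223 of 226 and between 156 and 163 of 166 when any 1 array was left out.

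**Figure D5:**
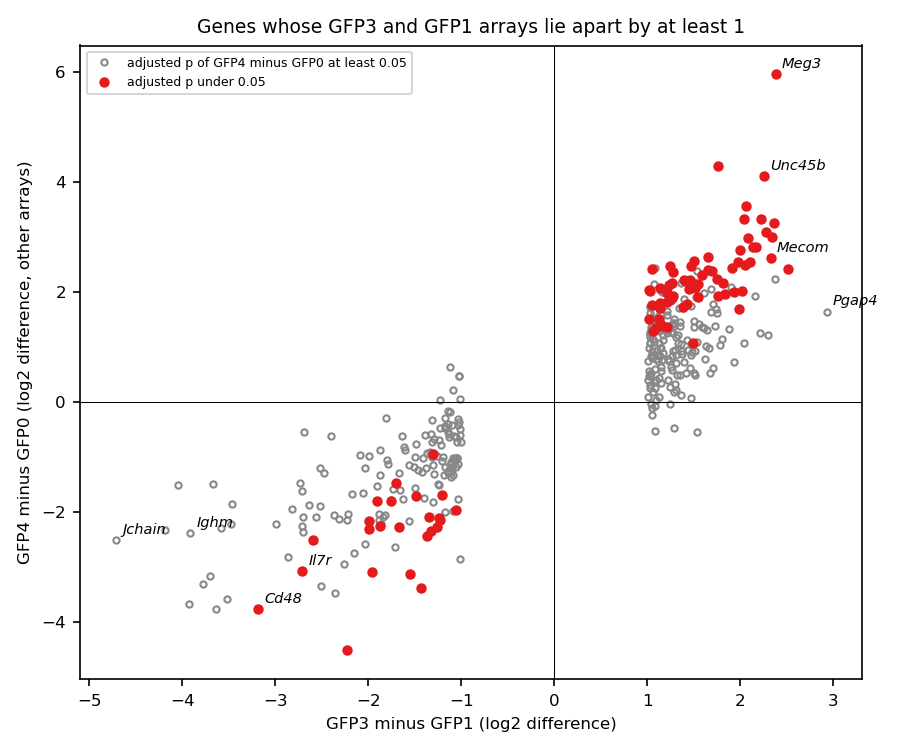
Each point is 1 of the 392 genes whose GFP3 and GFP1 arrays do not overlap and differ by at least 1, with the GFP3 minus GFP1 difference (horizontal, log2) against the GFP4 minus GFP0 difference on other arrays (vertical, log2); filled points passed an adjusted p of 0.05 in GFP4 minus GFP0. Of the 226 genes on the right 218 lie above 0, and of the 166 on the left 160 lie below 0.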

How the data were processed

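Per the labels' protocols, RNA of sorted LSK cells was amplified and hybridised as biotinylated cRNA; per the submitters' processing notes GCOS, RMA and affy were used, with no versions. The authors deposited log2 expression per probe set (2.69 to 15.1). No detection calls or genome build are given in the sources used here. Of 45101 probe sets, 34958 name 1 gene, 932 several and 9211 none by the platform annotation; 34754 matched RefSeq (GRCm38.p6, names only). The brightest probe set per symbol by its mean over 14 arrays gave 18194 genes, and 0 columns belonged to no sample. RMA can compress changes in dim probe sets.

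In limma 3.58.1 (R 4.3.3) group means were fitted to all 14 arrays, because GFP3 has 2 arrays, with moderated tests (9 residual and 3.99 prior degrees of freedom), two-sided, adjusted by Benjamini-Hochberg over all genes; the threshold was 0.05. The number of arrays limits the precision. Named were the 12 highest and 12 lowest differences among genes with unadjusted p under 0.01, arrays without overlap, a brighter group mean at or above the table median and a probe set not ending in _x_at; up to 4 members with the smallest p of each of 21 programme lists and 9 marker lists; the 4 smallest p against the midpoint; and genes by name. Some list members were named beyond this rule after their values were seen. Members and lists were chosen with earlier results of these data known. The fit was tested on simulated arrays (200 of 18194 genes changed); 9 of 153 calls were false, and 0 calls were made with no change. Figures were drawn with matplotlib 3.10.9.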

Additional observations from a re-analysis of the deposited data

Results flagged for a closer look

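Of 40 genes examined for an array far from the others within GFP4, the only group with more than 3 arrays, 2 had one, and chance marks about 1 in 20. For Mmrn1, GFP4 replicate 4 was at 11.62 while the other 3 arrays lay between 10.98 and 11.03. For Dntt, GFP4 replicate 2 was at 12.38 while the other 3 lay between 9.90 and 10.22. Both values enter the comparison of GFP4 with GFP0 and, through the shared estimate of spread, the test between GFP3 and GFP1.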

How the results depend on the processing

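Under centring of each array and cyclic loess no gene passed between GFP3 and GFP1 either. The number that passed was 1 with a filter on dim genes (Obsl1), 1 with probe sets averaged per gene (Ndn), 2 with a trended and robust variance model, 60 with array quality weights (31 higher, 29 lower) and 1 with only the arrays of the groups compared (Ighm). Of alternatives chosen after seeing the data, leaving out GFP0 replicate 1 and GFP4 replicates 1 and 2 gave 3, and a trended and robust model on the 5 arrays gave 7. Leaving out each array gave 0 to 9. The cause was not tested. The 811 genes at an unadjusted p under 0.05 became 1295 with every probe set by itself (more features), 1579 with weights, 466 with 3 prime to 5 prime covariates and 190 with GFP1 replicate 3 alone (fewer samples), and 184 to 1530 with an array left out. The 226 genes higher and apart by at least 1 became 128 with the mean over probe sets, 356 with every probe set, 101 with GFP1 replicate 3 alone, 844 at a difference of 0.5, 22 at 2 and 162 to 594 with an array left out; the 166 lower became 262 with every probe set, 591 at 0.5, 45 at 2 and 144 to 335. The 306 genes of GFP4 against GFP0 became 2 with weights, 58 with only the arrays compared, 142 with covariates, 112 without the 3 arrays and 51 to 363 with an array left out. The test against the midpoint gave 0 calls throughout. Leaving out 1 GFP3 array leaves a lone sample that is assumed to vary like the other groups.

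The replicate number as a block gave 13 genes between GFP3 and GFP1 (12 higher, 1 lower), 1469 at an unadjusted p under 0.05 and 67 for GFP4 against GFP0. Same-numbered arrays deviated together in some pairs only. Over 23 such pairs the correlation of their deviations ran from -0.26 to 0.58 with a median of 0.05, and 9 exceeded 0.1. The highest were GFP1 with GFP2 replicate 3 at 0.58 and GFP0 with GFP4 replicate 1 at 0.53. Over 54 pairs of differing number it ran from -0.63 to 0.48 with a median of -0.05, and 20 exceeded 0.1.

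Of the differences of 132 named genes, 45 moved by over 1.5 times with the mean over probe sets, 37 with the covariates, 76 with GFP1 replicate 3 alone and 0 to 25 with an array left out. Differences of single genes changed sign as follows. With the mean over probe sets Npm1 was 0.13, Atp5a1 -0.0044, Spn -0.065 and Prrc2a -0.13. With the block Cd99 was 0.019, and with the covariates Rlim was -0.0023. Leaving out an array gave ranges of -0.60 to 0.063 for Cd34, -0.41 to 0.00086 for Flt3, -0.32 to 0.10 for Cd99, -0.028 to 0.30 for Prrc2a, -0.019 to 0.14 for Spn and -0.59 to 0.039 for Alas2. With GFP1 replicate 3 as the only GFP1 array Rtp4 was -0.014, Rnf2 -0.11, Sesn1 -0.10, Cd68 0.20, Ermap 0.26, Fn1 0.063, Vcam1 0.050 and Rlim -0.13.

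No detection calls come with the values, so dim levels limit the size of a difference.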
